A study of Mus musculus with 59 samples.

Results

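Keratins Krt7, Krt8, Krt18, Krt19 and Krt20 of simple epithelium, Krt5, Krt14, Krt15 and Krt17 of stratified epithelium, and Krt23 were followed from normal ovarian epithelium through primary mouse serous epithelial ovarian cancers (SEOCs) to orthotopic transplants. The rule that picks their probe sets uses no measured value, although the family itself was chosen with earlier results of these data known. Every probe set that names 1 of them alone was taken, which gave 15 probe sets of 34945 and 10 genes of 18193. Where a keratin had several probe sets, the one with the highest mean over all arrays stands for it. The others are compared below for published tumors against normal samples. Values are log2 signals on Affymetrix mouse arrays, so a difference of 1 is a doubling of signal.

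Keratins are the intermediate filament proteins of epithelial cells. Each filament is built from a type I and a type II keratin in equal parts. Krt8 (type II) with Krt18 (type I) is the basic pair of single-layered epithelia, to which Krt7 (type II), Krt19 and Krt20 (type I) are added by tissue. Krt5 (type II) with Krt14 (type I) is the pair of the basal layer of skin and other stratified epithelia, where Krt15 marks basal and hair follicle cells and Krt17 appears in follicles and in wounded skin. Krt23 is a type I keratin. In human pathology serous ovarian carcinoma is usually positive for KRT7 and negative for KRT20.

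All 59 samples were labelled as strain FVB/NJ. The published set held 14 Brca1-deficient primary SEOCs with deleted p53 (B1 fl/fl and p53 fl/fl), 3 Brca1-deficient SEOCs with a p53 missense allele (p53 m/fl), 5 Brca2-deficient SEOCs with that allele (B2 fl/fl) and 4 SEOCs with wild type Brca genes and deleted p53, all carrying the K18 tg transgene, with 3 wild type samples of normal ovarian epithelium beside them. The new set held 18 Brca1-deficient tumors labelled B1 D/D with K18 tg and cp D/D, of which 2 were primary and 4, 4, 4, 2 and 2 were of passages 1 to 5. It also held 12 Brca1-wild type tumors labelled K18 D/D and cp D/D, of which 3 were primary, 4 of passage 1 and 5 of passage 2. The study describes the lines of both genotypes as p53-deleted and as carrying TgK18G_T121. That transgene is a bacterial artificial chromosome with the mouse keratin 18 gene, holding a T121 cassette that is switched on by Cre and inactivates the RB tumor suppressors. Cre came from an adenoviral vector injected into the ovarian bursa, and passages were made by placing a tumor fragment under the bursa of immunocompetent FVB females, so a passaged tumor also holds cells of its host. The sources used here do not tie a passaged tumor to its line of origin. In the order of the samples, each new primary tumor is followed by passaged tumors of its own genotype label. If that order follows the lines, the 18 Brca1-deficient arrays come from 2 primary tumors and the 12 Brca1-wild type arrays from 3. Tumors of a shared line therefore entered the tests as if independent, which can make their p-values too small.

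Pairs of arrays with nearly the same values stood out in the new set. Passage 3 tumors 65021 and 64644 differed by an SD of only 0.072 over all probe sets. Passage 2 tumor 61362, labelled Brca1-deficient, and passage 2 tumor 62803, labelled Brca1-wild type, differed by 0.080, although their genotype labels differ. Primary tumor 30200, profiled in both sets, differed by 0.31 between its arrays, and the passage 5 tumors 65026 and 65076 by 0.21. Among Brca1-wild type tumors, 63846 and 63935 of passage 2 differed by 0.26, and passage 1 tumor 56234 and tumor 62803 by 0.28. Means and SDs below count the first pair once and leave the second pair out of means by genotype, while the fits use every array unless stated. The tissue labels were checked against defining markers. Epcam, the epithelial adhesion molecule, lay between 12.69 and 13.38 in published tumors and between 11.96 and 12.19 in normal samples. It was the only 1 of 8 epithelial markers called higher in published tumors, and 0 were lower, where 15% of all genes were higher and 26% lower. The normal samples also carried transcripts of other ovarian cells: the mean of 7 oocyte markers was 5.04 to 5.65 in published tumors, 4.99 to 5.74 in passaged tumors and 8.64 to 9.78 in normal samples. In bulk samples fewer cells of a type and less RNA per cell cannot be told apart.

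Krt8 and Krt18, the pair of simple epithelium, were higher in every tumor array than in every normal sample. Krt18 read 13.34, 13.55 and 13.78 (lowest, median and highest) in the 26 published tumors, against 12.44, 11.89 and 12.18 in the 3 normal samples. Its log2 fold change was 1.37 (SE 0.10, limma adjusted p = 2.44e-12), a 2.59-fold difference. Krt8 read 12.30, 12.75 and 13.13 in published tumors, against 11.68, 10.92 and 11.10 in normal samples. The difference was 1.54 on the log2 scale (SE 0.14, adjusted p = 3.98e-10). The tumors were also alike among themselves, with an SD of 0.13 for Krt18 and 0.20 for Krt8 over 26 tumors. Krt18 lies close to the highest value of the whole table, 14.31, so its spread among tumors is read near the upper end of the scale. In normal samples the order was the same for both genes, normal 1 highest and normal 2 lowest.

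By the study's description every tumor carries the transgene with the Krt18 gene and the wild type normal samples do not, so the size of the Krt18 change can be set beside that of its partner. Within each array Krt18 minus Krt8 was 0.56 to 1.09 in published tumors (mean 0.78 ± 0.12, SD, n = 26) and 0.77 to 1.08 in normal samples (mean 0.94 ± 0.16, SD, n = 3). The ranges overlap, and the mean difference was the smaller one in tumors. Whether the probe set of Krt18 also reads transcript of the transgene was not tested. In the reference annotation Krt8 and Krt18 are neighbours on chromosome 15 with 0 protein-coding genes between their starts. Their promoters are shown because the pair moved together, with those of Krt14 and Krt20, the keratins with the steepest change over passages. Each is 300 bases of GRCm38.p6 from RefSeq, running from 250 bases before the annotated start to 50 bases after it, and capitals mark matches to TATAAA on either strand.
Krt8, chr15:102004293-102004592, minus strand: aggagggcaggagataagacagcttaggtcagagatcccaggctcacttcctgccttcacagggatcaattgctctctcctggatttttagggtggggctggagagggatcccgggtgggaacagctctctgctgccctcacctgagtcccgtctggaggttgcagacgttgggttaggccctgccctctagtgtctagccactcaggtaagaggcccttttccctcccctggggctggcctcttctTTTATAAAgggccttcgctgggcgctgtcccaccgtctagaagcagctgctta
Krt18, chr15:102027966-102028265, plus strand: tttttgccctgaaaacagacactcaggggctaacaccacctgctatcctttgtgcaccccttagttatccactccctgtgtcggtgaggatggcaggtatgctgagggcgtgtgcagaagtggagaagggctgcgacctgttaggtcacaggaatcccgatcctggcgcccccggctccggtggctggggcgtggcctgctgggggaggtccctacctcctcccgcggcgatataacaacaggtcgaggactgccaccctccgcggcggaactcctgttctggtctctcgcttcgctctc
Krt14, chr11:100205981-100206280, minus strand: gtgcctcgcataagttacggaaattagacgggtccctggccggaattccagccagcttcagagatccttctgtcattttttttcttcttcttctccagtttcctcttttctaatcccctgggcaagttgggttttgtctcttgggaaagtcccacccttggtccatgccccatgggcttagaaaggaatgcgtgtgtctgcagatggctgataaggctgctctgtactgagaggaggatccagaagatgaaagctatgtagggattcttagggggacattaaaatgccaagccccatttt
Krt20, chr11:99438104-99438403, minus strand: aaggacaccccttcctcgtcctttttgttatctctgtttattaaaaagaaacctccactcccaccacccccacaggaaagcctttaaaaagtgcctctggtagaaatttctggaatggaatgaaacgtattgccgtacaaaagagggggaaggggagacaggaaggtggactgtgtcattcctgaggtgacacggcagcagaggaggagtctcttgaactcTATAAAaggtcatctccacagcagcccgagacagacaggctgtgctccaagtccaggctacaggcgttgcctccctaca

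Of the 10 keratins, 7 had a promoter in the table. TATAAA, read on both strands, was found in Krt8 and Krt20 among these 7, and 13.6% of all 32851 promoters held it. The overlapping matches in Krt8 lie at the annotated start itself and that in Krt20 begins 29 bases before the start. GGGCGG, read on both strands, had 4 matches in Krt7 and 0 in the other 6, against 35.7% of all promoters with a match. TGANTCA, searched the same way, matched none of the 7 and 7.81% of all promoters. A match is a description of these letters only.

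Krt7 and Krt19, the other keratins that line simple ducts and surfaces, were also higher in tumors. Krt7 read 10.06, 12.78 and 13.31 (lowest, median and highest) in published tumors, against 11.54, 9.92 and 10.88 in normal samples. The groups overlapped through 2 Brca1-deficient tumors, tumor 48 at 10.60 and tumor R5855 at 10.06, while the other 24 lay at or above 12.32. Its log2 fold change was 1.84 (SE 0.43, adjusted p = 0.00109). Krt19 read 12.40, 13.41 and 13.74 in published tumors, against 12.46, 11.79 and 12.02 in normal samples, and the difference was 1.26 (SE 0.19, adjusted p = 4.22e-06). Only tumor 30200 fell among the normal values of Krt19, and its second array in the new set read 12.45.

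Krt20, a keratin known from intestinal and urothelial surface cells, varied far more. It read 7.68, 10.36 and 11.29 in published tumors, against 9.58, 7.15 and 8.37 in normal samples, and 21 of the 26 tumors lay above every normal sample. Its log2 fold change was 1.78 (SE 0.53, adjusted p = 0.00891) and became 1.17 (adjusted p = 0.156) without normal 2. Normal 2 was the lowest of the 3 for Krt7, Krt8, Krt18, Krt19 and Krt20, and it had the highest mean of the 7 oocyte markers, 9.78, against 8.64 in normal 1, which was highest for these 5 keratins. The part that other cells in the normal samples play in these values was not tested.

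Krt14 showed the largest change of the family and, together with Krt17, separated every published tumor from every normal sample. Krt14 read 7.80, 9.53 and 11.79 in published tumors, against 6.28, 6.53 and 6.88 in normal samples, an 8.84-fold difference (log2 3.14, SE 0.63, adjusted p = 2.09e-04). Krt17 read 6.43, 8.38 and 10.02 in published tumors, against 5.89, 5.47 and 5.68 in normal samples, a 6.80-fold difference (log2 2.77, SE 0.52, adjusted p = 1.06e-04). Both were spread widely over the tumors, with an SD of 1.11 for Krt14 and 0.92 for Krt17. Krt15 read 6.09, 8.76 and 11.50 in published tumors, against 6.42, 6.74 and 6.87 in normal samples, and 24 of 26 tumors lay above every normal sample. Its log2 fold change of 2.03 (SE 0.76, adjusted p = 0.0340) was just past the threshold, and it missed it without any 1 of the normal samples (adjusted p 0.0834 to 0.122). In all 3 normal samples Krt14, Krt17 and Krt15 read below the median of all probe sets, which was 7.20 or higher. The fold differences of these keratins are therefore measured from low signal.

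Krt5, the type II partner of Krt14 in basal cells, did not pass the test. It read 5.59, 5.92 and 6.38 in published tumors, against 5.55, 6.53 and 6.09 in normal samples, with a difference of -0.14 (SE 0.14, adjusted p = 0.450). Over all 59 arrays it stayed between 5.55 and 6.75, below the median of all probe sets on each array, which was 7.20 or higher. At such low signal the array may not resolve a change. Without normal 1 its log2 fold change was -0.39 (adjusted p = 0.0423).

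Krt23 was low in nearly all samples and high in 1 tumor. It read 11.46 in Brca1-deficient tumor 235746, 4.98 to 6.77 in the other 25 published tumors, and 5.11, 5.64 and 5.42 in normal samples. Its log2 fold change of 0.42 (SE 0.69, adjusted p = 0.662) includes that tumor. The same tumor had the lowest Krt14 of the published set, 7.80, and the highest Krt17, 10.02.

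**Figure D1:**
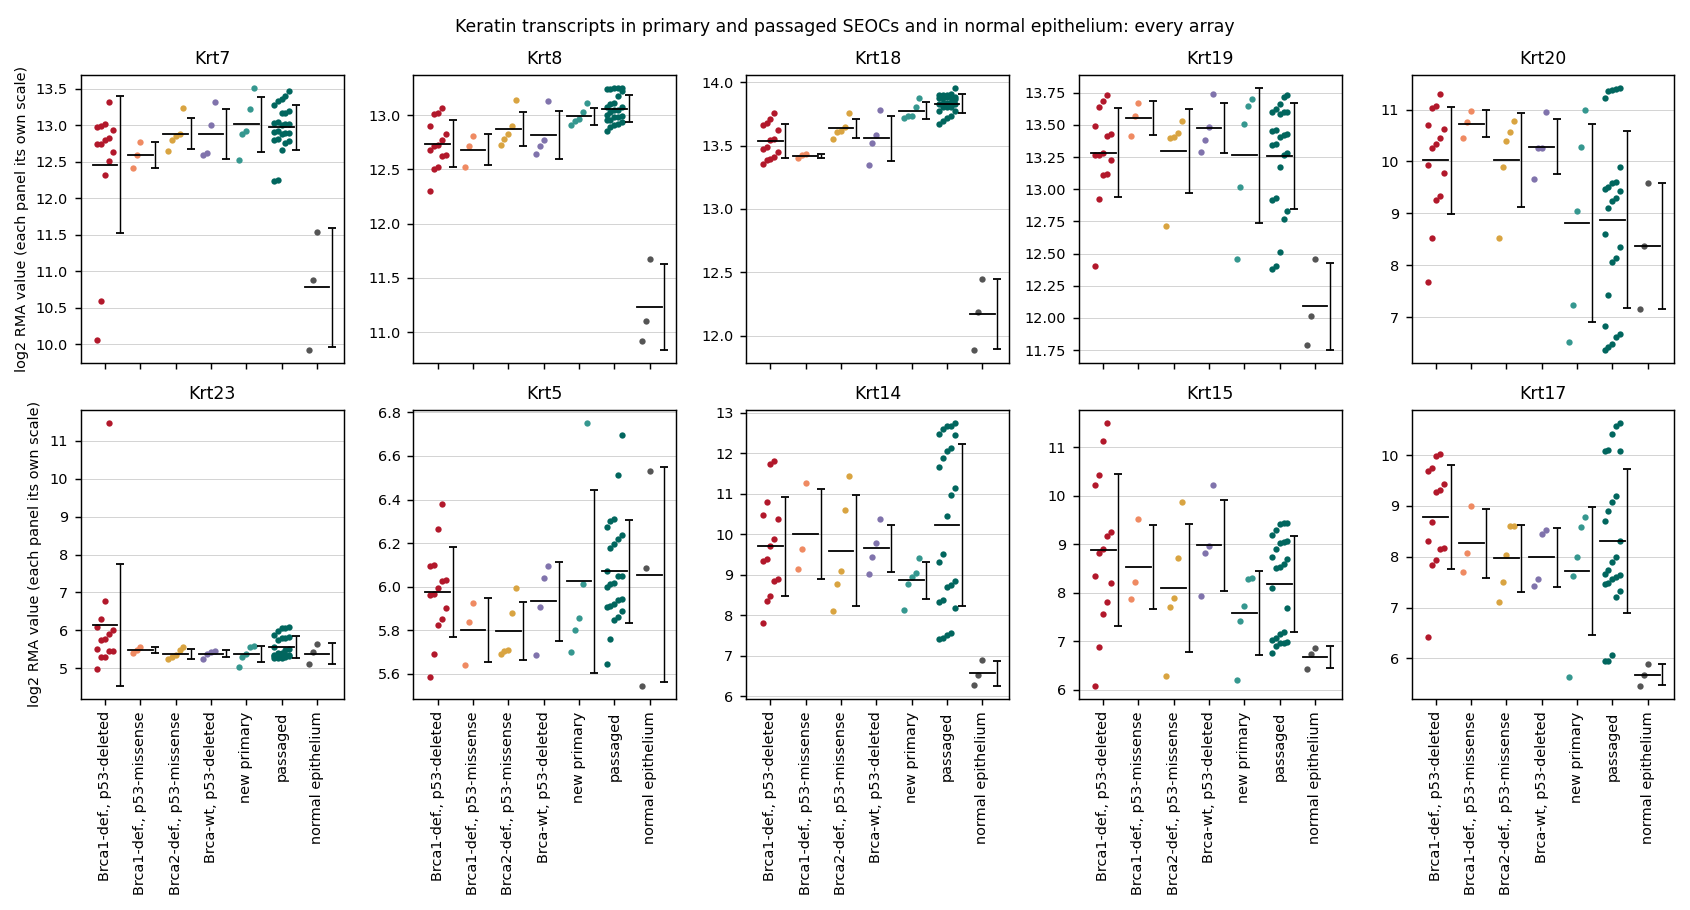
Log2 values (y axis, a separate scale in each panel) of the 10 keratins on every array, with published primary tumors by genotype, new primary tumors, passaged tumors and normal epithelium along the x axis; points are arrays, bars the mean and error bars the SD over all arrays of a group. Krt8, Krt18 and Krt14 are above the normal samples in all 56 tumor arrays, Krt5 lies between 5.55 and 6.75 everywhere, and 1 tumor stands alone at 11.46 for Krt23.

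In all, 8 of the 10 keratins were higher in published tumors than in normal samples and 0 were lower, where 15% of all 18193 genes were higher and 26% lower. The median log2 fold change was 1.66 over the 10 keratins and -0.11 over all genes. Krt8, Krt18, Krt14 and Krt17 did not overlap between the groups, all with the tumors above, as did 5.13% of all genes. Krt8, Krt18 and Krt14 did not overlap over all 56 tumor arrays, as did 3.17% of all genes. Other transcripts moved with this comparison: all 7 oocyte markers, 6 of 7 granulosa and luteal markers and 4 of 6 fibroblast markers were lower in tumors. The mean of the 6 fibroblast markers was 8.51 to 12.45 in published tumors and 12.54 to 12.63 in normal samples. Vim, the intermediate filament of mesenchymal cells, read 12.45 to 13.46 in published tumors and 13.27 to 13.36 in normal samples (log2 fold change -0.19, SE 0.16, adjusted p = 0.380).

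In published tumors against normal samples the alternative probe sets gave the same picture for Krt8 and differed for Krt14 and Krt17. All 3 probe sets of Krt8 were higher in published tumors, with log2 fold changes of 1.54, 1.58 and 1.66. Of the 3 probe sets of Krt14, 1 more was higher at 3.31 (SE 0.70) and the other at -0.09 (SE 0.27) was not. The other probe set of Krt17 was at -0.06 (SE 0.07). Results by passage and by Brca1 genotype below are those of the representing probe set alone. A further probe set, which names Krt17 and Krt14 together, was left out. The keratins of this family are similar in sequence, and how far each probe set reads its relatives was not tested.

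Against the normal samples, 8 keratins were higher in Brca1-deficient tumors with deleted p53 (14.4% of all genes), 7 in Brca1-deficient tumors with missense p53 (9.78%), 6 in Brca2-deficient tumors (12.8%) and 7 in Brca-wild type tumors (12% of all genes), and 0 were lower in any (23.9%, 14.8%, 21.8% and 21.4% of all genes in the same order). Krt7, Krt8, Krt18, Krt19, Krt14 and Krt17 passed the test in all 4 groups. Krt14, for example, was higher by 3.14 (SE 0.69), 3.44 (SE 0.88), 3.03 (SE 0.79) and 3.08 (SE 0.83) in these groups in that order. Krt15 passed in the first group alone, and Krt20 missed in the Brca2-deficient tumors (1.66, SE 0.66, adjusted p = 0.0504). Krt7 lost its call in Brca1-deficient tumors with deleted p53 without normal 2 (1.25, adjusted p = 0.077), and in those with missense p53 without normal 2, normal 3 or any 1 of the 3 tumors (adjusted p 0.0518 to 0.136). Krt20 lost its call without normal 2 in the 3 groups where it had passed (adjusted p 0.123 to 0.24). These comparisons share the 3 normal samples.

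Between genotypes of the published set no keratin passed the test. Brca1-deficient and Brca-wild type tumors with deleted p53 averaged 9.70 ± 1.22 (SD, n = 14) and 9.65 ± 0.57 (SD, n = 4) for Krt14, a difference of 0.05 on the log2 scale (SE 0.60, adjusted p = 0.997), and 1 gene of 18193 was called in that comparison (0.0055%). For Krt17 the means were 8.78 ± 1.03 and 7.99 ± 0.58, a difference of 0.79 on the log2 scale (SE 0.52, adjusted p = 0.980). Tumors with missense p53 against deleted p53, both Brca1-deficient, gave adjusted p values of 0.684 or more for all 10 keratins (0.0715% of all genes called), and Brca2-deficient against Brca1-deficient tumors, both with missense p53, gave 0.499 or more (0% of all genes called by limma, 1687 genes at an unadjusted p under 0.05). The largest difference of the last comparison in standard errors was Krt18, 13.63 ± 0.08 (SD, n = 5) in Brca2-deficient and 13.42 ± 0.02 (SD, n = 3) in Brca1-deficient tumors. New against published primary tumors with deleted p53 also gave no call among the keratins (0.357% of all genes), with Krt20 at -1.35 (SE 0.62, adjusted p = 0.345). Its 23 arrays come from 22 tumors, since tumor 30200 stands on both sides as separate samples, and without the published array of that tumor 0 keratins passed and Krt20 was at -1.44 (adjusted p = 0.260). A p-value above the threshold in groups of 3 to 14 tumors does not show that the keratins were alike.

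Passaged tumors were set against normal epithelium with the set as a covariate, and 7 keratins were higher and 0 lower, where 10.2% of all genes were higher and 17.3% lower. Passaged tumors are all of the new set and normal samples all of the published set. The offset between sets therefore came from primary tumors alone, 5 new and 26 published. Only the published ones include Brca2-deficient tumors and tumors with missense p53. Krt8 (1.61, SE 0.14), Krt18 (1.43, SE 0.10), Krt19 (1.25, SE 0.29) and Krt7 (1.80, SE 0.43) had log2 fold changes near those of the published tumors. Krt14 (4.52, SE 1.17), Krt17 (3.35, SE 0.90) and Krt15 (2.64, SE 0.88) were higher too, and Krt15 missed the threshold without normal 1 (2.51, adjusted p = 0.0655). Krt20 was at 1.84 (SE 1.07, adjusted p = 0.20), Krt23 at 0.60 (SE 0.65) and Krt5 at -0.09 (SE 0.20). Much of the Krt20 value is the offset between sets. Mean Krt20 was 8.82 in new and 10.15 in published primary tumors, against 8.95 in passaged tumors and 8.37 in normal samples. Mean Krt14 was 8.86 in new and 9.71 in published primary tumors, so the offset also raised its 4.52. Krt15 and Krt17 had lower means in new primary tumors too. The 25 passaged tumors lay above all 3 normal samples for Krt7, Krt8, Krt18, Krt14 and Krt17, as did 6.4% of all genes. For Krt20 8 of 25 did.

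**Figure D2:**
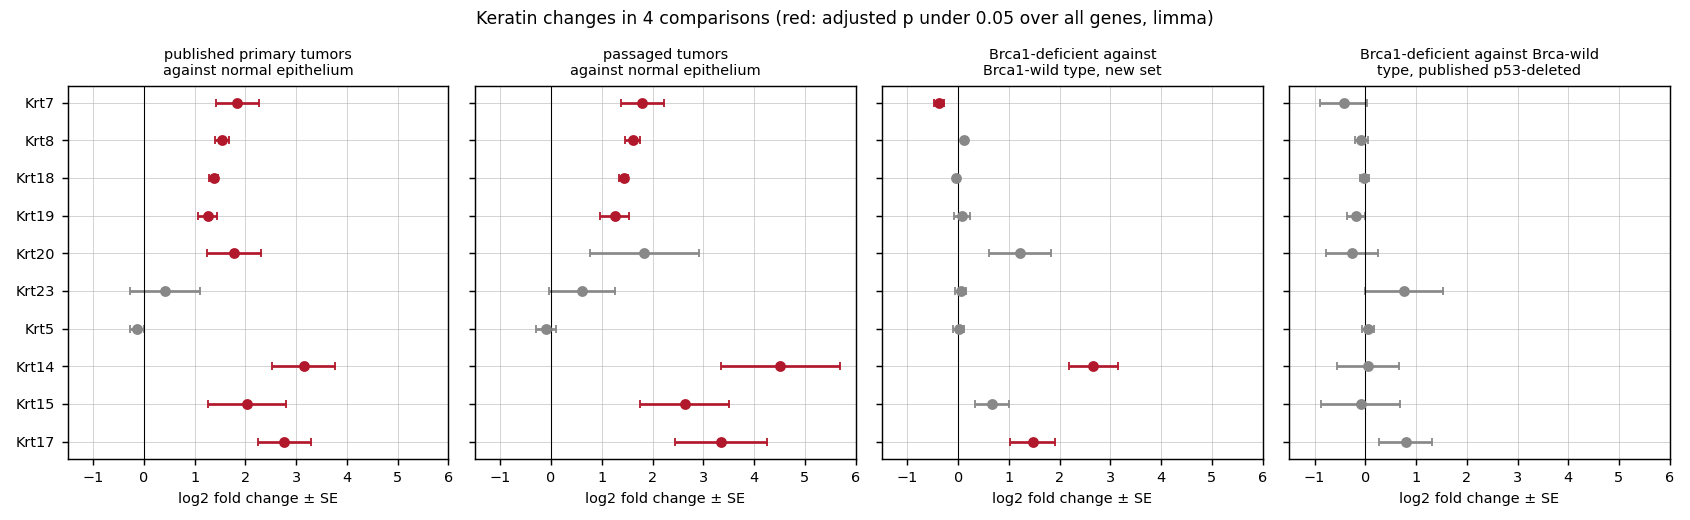
Log2 fold change with its SE (x axis) of each keratin (y axis) in 4 comparisons; red points have an adjusted p under 0.05 over all genes and grey points do not. Krt7, Krt8, Krt18, Krt19, Krt14, Krt15 and Krt17 are red in both comparisons with normal epithelium, and Krt14 at 2.66 is the furthest point of the Brca1 comparison in the new set, against 0.05 in the published set.

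Passaged and primary tumors of the new set were compared directly, with Brca1 genotype as a covariate. No keratin and 0 of all genes passed the test with limma, with 1179 genes (6.48%) at an unadjusted p under 0.05, of which 0 were keratins. Krt14 had the largest difference. Passaged tumors averaged 10.24 ± 1.94 (SD, n = 23) and primary tumors 8.86 ± 0.46 (SD, n = 5), and the fit gave 0.73 (SE 0.64, adjusted p = 0.966). Krt8 averaged 13.06 ± 0.12 in passaged and 12.99 ± 0.08 in primary tumors, and Krt19 13.28 ± 0.38 and 13.26 ± 0.53. The passaged tumors are of passages 1 to 5, and passages 3 to 5 are all Brca1-deficient.

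Along the passages of the 18 Brca1-deficient tumors 4 keratins rose and 0 fell, where 8.7% of all genes rose and 6.46% fell. Krt14 rose by 0.73 per passage (SE 0.19, adjusted p = 0.0132). It read 9.04 and 9.40 in primary tumors, 8.68, 9.50, 10.44 and 10.96 in passage 1, and 7.42, 11.14, 12.12 and 12.48 in passage 2, where the value of 7.42 belongs to tumor 61362 of the pair with conflicting labels. In passage 3 it read 12.04, 12.67, 12.67 and 12.74, in passage 4 11.64 and 11.89, and in passage 5 12.44 and 12.60. All 8 tumors of passages 3 to 5 were thus above both primary tumors and all 4 tumors of passage 1. Over passages 1 to 5 alone the slope was 0.70 (adjusted p = 0.0552).

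Krt20 rose by 0.75 per passage (SE 0.20, adjusted p = 0.0188). It read 6.53 and 10.98 in primary tumors, 6.67, 7.43, 8.06 and 9.89 in passage 1, 6.63, 8.14, 9.30 and 9.59 in passage 2, and 9.23, 9.43, 9.46 and 11.23 in passage 3. The 4 tumors of passages 4 and 5 read 11.35 to 11.42, a range of values that primary tumor 39877 at 10.98 nearly reached. In the order of the samples all 4 follow primary tumor 30200. Passage 3 tumors 65021 and 64644, which follow 39877, read no higher than 9.46, below that primary tumor. The pooled slope therefore need not hold within each series, and slopes by series were not tested. Without primary tumor 30200, at 6.53, the slope was 0.68 (adjusted p = 0.0560, an alternative chosen after seeing the data). It was 0.75 with adjusted p values of 0.0569 and 0.0571 when either tumor of passage 5 was left out.

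Krt15 and Krt23 also passed the test, by less. Krt15 rose by 0.39 per passage (SE 0.13, adjusted p = 0.0499) and missed the threshold when the near-identical arrays were counted once (0.37, adjusted p = 0.0566), or when any 1 of the 8 tumors of passages 3 to 5 was left out (adjusted p 0.0586 to 0.0912). It read 6.20 and 8.29 in primary tumors, 6.77 to 9.41 in passage 1, and 8.91, 9.04, 9.07 and 9.04 in passages 4 and 5. Krt23 rose by 0.16 per passage (SE 0.03, adjusted p = 0.00413), between 5.05 in primary tumor 30200 and 6.09 in passage 3 tumor 65021, all below the median of all probe sets on each array. The remaining 6 keratins had slopes of -0.07 to 0.12 and adjusted p values of 0.295 or more, and Krt18 had the flattest (-0.0040, SE 0.02).

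Markers of other cells moved along the same passages, where 8.7% of all genes rose and 6.46% fell. Of 5 leukocyte markers 3 rose, among them the T cell gene Cd3e by 0.65 per passage (SE 0.13), and their mean was 9.21 and 9.25 in passage 5 against 7.01 to 9.03 in all new primary tumors. Of 6 mesothelial markers 3 rose and Gpm6a fell (slope -0.25, SE 0.04), with Upk1b rising by 0.60 per passage (SE 0.10, adjusted p = 0.00110) and Wt1 and Upk3b each by 0.13. Of 6 fibroblast markers Dcn rose, by 0.15 per passage (SE 0.05, adjusted p = 0.0457). Of 8 epithelial markers Elf3 rose and Epcam and Cdh1 fell, Cdh1 by 0.45 per passage (SE 0.11). Trp63, the basal cell transcription factor p63, rose by 0.63 per passage (SE 0.12, adjusted p = 0.00244), the only 1 of 5 squamous markers to do so. It is also known from oocytes, and it read 5.42 to 8.02 in published tumors, 5.26 to 9.86 in passaged tumors and 9.52 to 10.58 in normal samples. Ivl, Lor, Sfn and Sprr1a, genes of cornifying cells, had slopes of 0.03 to 0.05 with adjusted p values of 0.640 or more. The part of host cells in the keratin slopes was not tested, and which tumors descend from which line cannot be told apart from passage number.

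**Figure D3:**
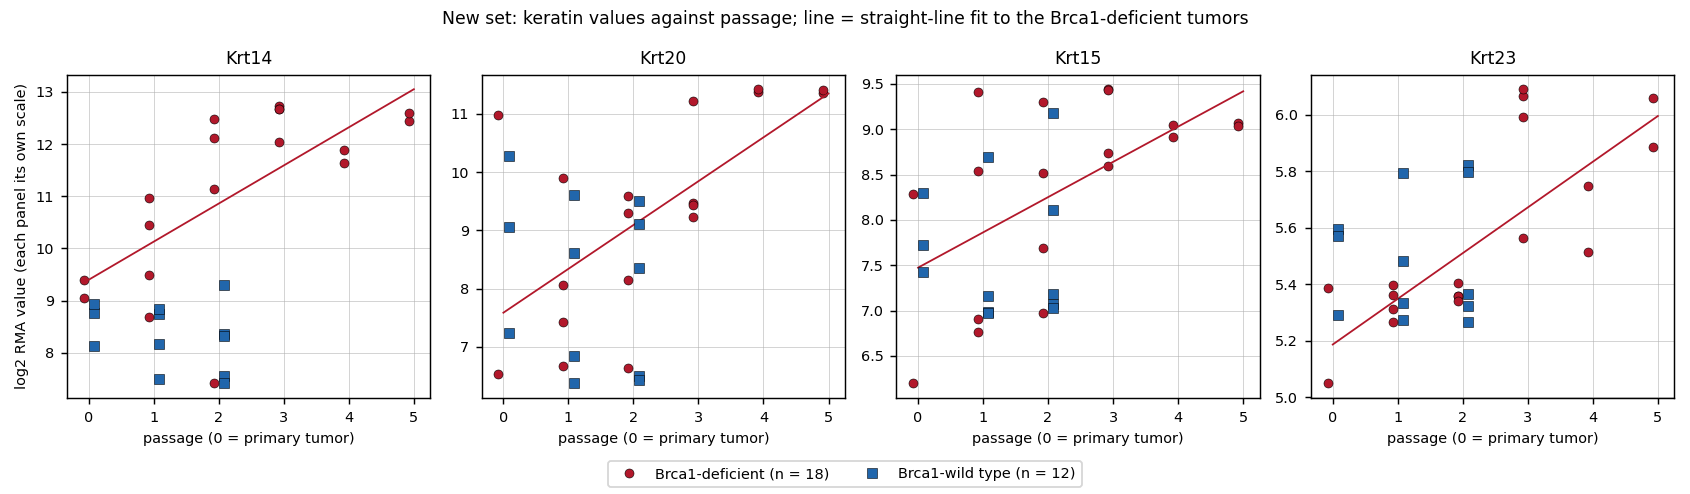
Log2 values of Krt14, Krt20, Krt15 and Krt23 (y axis, a separate scale in each panel) against passage number (x axis, 0 for primary tumors) in the new set, with circles for Brca1-deficient and squares for Brca1-wild type tumors; the line is a straight-line fit to the 18 Brca1-deficient tumors. For Krt14 the tumors of passages 3 to 5 sit between 11.64 and 12.74, above every Brca1-wild type tumor.

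By Brca1 genotype in the new set, with primary or passaged status as a covariate, 3 keratins passed the test, where 11.1% of all genes did (6.49% higher and 4.6% lower). Krt14 was higher in Brca1-deficient tumors, at 7.42, 11.77 and 12.74 (lowest, median and highest, n = 18), against 7.43, 8.35 and 9.30 in Brca1-wild type tumors (n = 12), and 15 of the 18 were above every Brca1-wild type tumor. Its log2 fold change was 2.66 (SE 0.49, adjusted p = 9.93e-04). Krt17 was higher by 1.46 (SE 0.45, adjusted p = 0.0317), with 7.33, 8.74 and 10.63 in Brca1-deficient and 5.63, 7.60 and 8.78 in Brca1-wild type tumors. Of the Brca1-wild type tumors, 34429, 59232, 63846 and 63935 had Krt17 values of 5.63 to 6.07, close to the 5.47 to 5.89 of the normal samples. These are consecutive samples, primary tumor 34429 and the passaged tumors listed after it, so they may share a line. The Krt17 difference without them was not tested. Krt7 was lower in Brca1-deficient tumors, with a difference of -0.38 on the log2 scale (SE 0.10, adjusted p = 0.0138), with 12.79 ± 0.26 (SD, n = 16) in Brca1-deficient tumors against 13.19 ± 0.23 (SD, n = 11) in Brca1-wild type tumors. Epcam was lower there as well, by a difference of -0.36 on the log2 scale (SE 0.09, adjusted p = 0.00984). It was the only 1 of 8 epithelial markers to pass. The median log2 fold change of the 8 was 0.32, against -0.001 over all genes.

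Passages 3 to 5 exist for Brca1-deficient tumors only. With passages 1 and 2 alone none of these 3 keratins passed, Krt14 at 2.09 (adjusted p = 0.0777), Krt17 at 1.51 (adjusted p = 0.172) and Krt7 at -0.19 (adjusted p = 0.360). Among primary tumors of the new set Krt14 read 9.04 and 9.40 with Brca1 deficiency, against 8.13, 8.77 and 8.93 with wild type Brca1. The Brca1 effect on Krt14 was 2.61 larger in the new than in the published set (SE 0.84, p = 0.00326), which did not pass after adjustment over all genes with limma (adjusted p = 0.226, 0.143% of all genes called). Trp63 was higher by 1.60 (SE 0.38, adjusted p = 0.00728) in Brca1-deficient tumors of the new set. It was the only 1 of 5 squamous markers to pass, where 6.49% of all genes were higher. Ivl, Lor, Sfn and Sprr1a had log2 fold changes of -0.08 to 0.28 with adjusted p values of 0.387 or more. Trp63 was not tested with passages 1 and 2 alone.

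Across the 26 published tumors some pairs of keratins varied together. All 45 pairs were tested by permutation (100000 draws, two-sided, adjusted over the 45). Krt8 and Krt18 had the closest relation, r = 0.81 (rho = 0.80, permutation p = 1e-05 for both, the smallest these draws can give, adjusted p = 4.5e-04), and r = 0.79 without the 2 tumors farthest from the median of Krt8. Krt19 and Krt20 had r = 0.77 (rho = 0.63, permutation p = 7e-05, adjusted p = 9e-04), 0.50 without 2 tumors. Krt20 and Krt15 had r = 0.75 (rho = 0.75, permutation p = 2e-05, adjusted p = 4.5e-04), 0.62 without 2 tumors. Krt7 and Krt8 had r = 0.65 (permutation p = 8e-05, adjusted p = 9e-04), 0.47 without 2 tumors, which are the pair with low Krt7, and missed the threshold by rank (rho = 0.48, adjusted permutation p = 0.0801). Krt19 with Krt15 (r = 0.64) and Krt7 with Krt18 (r = 0.53) also passed. By r 6 pairs passed in all, all positive, of which 3 passed without 2 tumors. By rho Krt7 with Krt23 passed as a negative pair (rho = -0.65, adjusted permutation p = 0.00619), which did not pass by r (r = -0.21, adjusted permutation p = 0.385). Krt14 and Krt17 had r = 0.35, and neither passed with any keratin by r or rho.

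In the 30 tumors of the new set the same coefficients are given as a description only, since tumors of 1 line and near-identical arrays are not independent. Krt20 with Krt15 (r = 0.77), Krt19 with Krt20 (r = 0.74) and Krt19 with Krt15 (r = 0.70) were again high. Krt8 with Krt18 was at 0.24, within a range of only 0.40 for Krt8 and 0.29 for Krt18. Krt14 ran with Krt15 (r = 0.71), Krt17 (r = 0.67), Krt20 (r = 0.66) and Krt8 (r = 0.64), and Krt7 ran against Krt20 (r = -0.75).

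**Figure D4:**
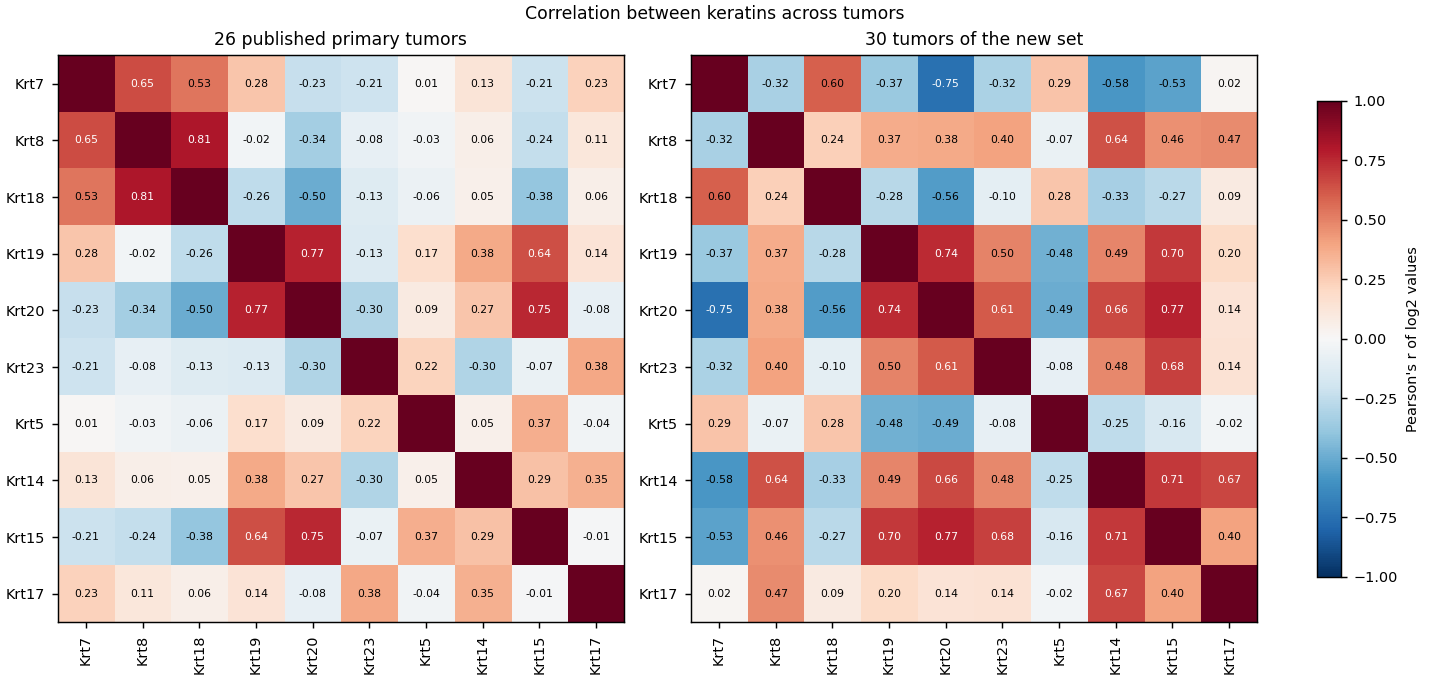
Pearson's r between the log2 values of each pair of keratins over the 26 published tumors (left) and the 30 tumors of the new set (right), on a colour scale of -1 to 1. Krt8 with Krt18 stands out on the left at 0.81 and is at 0.24 on the right, while Krt19, Krt20 and Krt15 form a block with positive r in both.

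The genes most like each keratin were sought over the 56 tumor arrays after removing each set's mean, as a description. Nearest to Krt7 was Plet1, an epithelial surface protein of placenta (r = 0.87, 0.92 in published and 0.60 in new tumors). Published tumors 48 and R5855 had far lower Krt7 than the others, and r without them was not computed. Nearest to Krt18 were the keratin Krt80 (r = 0.71) and, further down, Mybpc2 (r = 0.67) and Krt8 (r = 0.65), and nearest to Krt8 was the calcium-binding protein gene Cib1 (r = 0.72). Krt19 ran with the glycosyltransferase B3gnt7 (r = 0.86), Krt20 with the potassium channel Kcna4 (r = 0.85), and Krt15 with Krt20 itself (r = 0.68). For Krt14 it was Fam81a (r = 0.80, 0.44 in published and 0.91 in new tumors). The slow skeletal muscle troponin Tnnt1 was nearly level with it (r = 0.80, 0.36 in published and 0.92 in new tumors). Krt17 was nearest to the prefoldin subunit Pfdn6 (r = 0.78). Krt5 was nearest to the phosphodiesterase Pde4a (r = 0.78, 0.42 in published and 0.90 in new tumors). The value of Krt23 with Wnt16 (r = 0.93, 0.96 in published and 0.30 in new tumors) comes with 1 published tumor that had Krt23 at 11.46.

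Of 38 further keratins measured, 2 were higher and 11 lower in published tumors than in normal samples, where 15% of all genes were higher and 26% lower, and their median difference was -0.16 where that of all genes was -0.11. Krt80, a type II keratin of many epithelia, was higher by 2.37 (SE 0.49, adjusted p = 3.42e-04), with 6.72, 8.84 and 10.81 (lowest, median and highest) in published tumors and 6.21 to 6.64 in normal samples. Krt33a, a hair keratin, was higher by 1.68 (SE 0.64), and Krt1 and Krt4, of skin and oesophagus, were lower, with log2 fold changes of -0.77 (SE 0.17) and -0.56 (SE 0.18). Along the passages Krt12, the corneal keratin, rose by 0.30 (SE 0.08, adjusted p = 0.0175), the only 1 of the 38 to pass, where 8.7% of all genes rose. By Brca1 genotype in the new set Krt79 alone of the 38 passed, higher by 1.01 (SE 0.31, adjusted p = 0.0313), where 6.49% of all genes were higher.

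Keratins are anchored at cell junctions by desmosomes and hemidesmosomes. Of 16 genes of desmosomes, hemidesmosomes and their linkers 6 were higher and 0 lower in published tumors, with a median log2 fold change of 0.58, where 15% of all genes were higher and 26% lower. In passaged tumors it was again 6 and 0, where 10.2% of all genes were higher and 17.3% lower. Dsc3, a desmosomal cadherin, was higher by 3.36 (SE 0.47, adjusted p = 1.69e-06) in published and 3.35 (SE 0.61) in passaged tumors. The linkers Eppk1 (2.72, SE 0.43) and Plec (1.01, SE 0.24) and the desmosomal cadherin Dsg2 (1.09, SE 0.41) were higher in published tumors too. Along the passages Col17a1, the hemidesmosomal collagen of basal cells, rose by 0.79 (SE 0.11, adjusted p = 3.10e-04), while Eppk1 and the integrin subunit Itga6 fell, with slopes of -0.25 (SE 0.06) and -0.16 (SE 0.03). Among the 16 genes 1 thus rose and 2 fell, where 8.7% of all genes rose and 6.46% fell. Col17a1 was also higher by Brca1 genotype in the new set (1.30, SE 0.41, limma adjusted p = 0.0364). It was the only 1 of the 16 to pass, where 6.49% of all genes were higher and 4.6% lower. Col17a1 was not tested with passages 1 and 2 alone.

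Among 16 other intermediate filament genes 2 were higher and 2 lower in published tumors, where 15% of all genes were higher and 26% lower. Synm, a muscle intermediate filament protein, was lower with a difference of -3.60 on the log2 scale (SE 0.54, adjusted p = 5.23e-06), and the nuclear lamin Lmnb1, known to follow proliferation, was higher by 1.14 (SE 0.12, adjusted p = 1.56e-08). Along the passages 3 of the 16 rose and 0 fell, where 8.7% of all genes rose and 6.46% fell. Prph, the peripheral neuron filament, rose by 0.52 (SE 0.10, limma adjusted p = 0.00181), Des by 0.38 (SE 0.12) and Nefl by 0.13 (SE 0.04). Vim had a slope of -0.04 (SE 0.02, limma adjusted p = 0.243). By Brca1 genotype in the new set 2 of the 16 were higher, Synm by 1.26 (SE 0.35) and Des by 0.91 (SE 0.29), and 0 lower, where 6.49% of all genes were higher and 4.6% lower.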

How the data were processed

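RNA of flash-frozen tumor pieces was amplified and hybridised to Affymetrix mouse arrays. The deposited values are log2 expression that the authors made with RMA (background correction, quantile normalization and probe set summary), its version not given in the sources used here. Normalized arrays carry no depth, so the number of arrays limits precision. Of 45037 probe sets 34945 name 1 gene, 932 several and 9160 none. A gene was represented by its probe set with the highest mean (18193 genes, 9010 with several). Groups were compared with limma 3.58.1 (R 4.3.3), Benjamini-Hochberg adjusted over all genes at 0.05, and correlations with 100000 permutations (scipy 1.17.1). The labels do not say that samples of a group came from separate animals, so p-values measure only the spread between samples.

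All 10 keratins were named, with up to 4 genes of each other list by size of change and Vim always, and the 3 nearest genes for likeness, of which some are given. Krt79, Krt12 and the other list genes follow that rule. The members and lists were chosen with earlier results of these data known. The authors' merged human and mouse log2 table, with 6 of the 10 keratins among 6397 entries, served as an alternative, and 278 of its columns were not used. Other alternatives were left-out samples, near-identical arrays counted once, other eBayes settings, array weights, other probe set choices and other passages. The limma fit was checked on simulated data.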

Additional observations from a re-analysis of the deposited data

Results flagged for a closer look

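Each keratin was looked at in every group of 4 to 10 samples, 70 sets in all, for 1 sample far from the others; chance alone flags about 5% of such sets, and 5 were found. In passage 3 of the Brca1-deficient tumors, tumor 61742 stood apart for a pair of keratins, with Krt20 at 11.23 (the other 3 at 9.23 to 9.46) and Krt14 at 12.04 (the others at 12.67 to 12.74). These others include the near-identical arrays 65021 and 64644, which narrow the range. In passage 1 of the Brca1-deficient tumors, tumor 57454 had Krt17 at 10.41, where the others read 7.33 to 7.73. In passage 1 of the Brca1-wild type tumors, tumor 59232 had Krt15 at 8.7, where the others read 6.97 to 7.16. Among the Brca2-deficient published tumors, tumor 23172 had the lowest Krt19, 12.72, where the others read 13.4 to 13.53.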

How the results depend on the processing

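Of the counts of keratins past the threshold recomputed under alternatives, 111 stayed within 1.5 times the main count and 12 moved. Of the recomputed values of single keratins, 436 kept their direction and side of the threshold, 45 lost the call, 9 gained it and 0 turned. The merged table holds only 6 of the 10 keratins. Against normal epithelium it gave 5 for all published tumors, 5 and 4 for Brca1-deficient tumors with deleted and with missense p53, 4 for Brca2-deficient, 3 for Brca-wild type and 4 for passaged tumors, where the main table gave 5, 5, 4, 3, 4 and 4 of the same 6 keratins. The cause of the differences in Brca2-deficient and Brca-wild type tumors was not tested. Leaving out 1 normal sample at a time, and 1 tumor at a time in the groups of 3 to 5 published tumors, gave 6 to 8 keratins in published tumors, 5 to 7 in Brca1-deficient tumors with deleted p53 (5 without normal 2), 5 to 8 with missense p53, 6 to 8 in Brca2-deficient, 6 to 7 in Brca-wild type and 6 to 7 in passaged tumors. Along the passages, leaving out each of the 8 tumors of passages 3 to 5 gave 2 to 3 keratins, 2 without either passage 5 tumor, 2 over passages 1 to 5 alone and 2 without primary tumor 30200, against 4 with all tumors; the cause was not tested. By Brca1 genotype 0 keratins passed with passages 1 and 2 alone, where fewer tumors enter. Of 6 pairs correlated by r 3 passed without the 2 tumors farthest from the median. No paired analysis was possible because the replicate numbers only name samples in accession order, and tumor 30200, profiled in both sets, is the only tumor that the groups share. The number of normal samples, 3, limits every comparison with normal epithelium.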
